A study of Rattus norvegicus with 6 samples.

Results

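The lysosomal cathepsins, the related protease legumain and the secreted inhibitor cystatin C were followed as a family of 10 genes (Ctsb, Ctsc, Ctsd, Ctsh, Ctsk, Ctsl, Ctss, Ctsz, Lgmn and Cst3). They were chosen by name, and every probe set that the array annotation assigns to a single one of them was taken, which gave 13 of the 31042 probe sets other than controls and 10 of the 14217 genes named on the array. Ctsc, Ctsl and Lgmn had 2 probe sets each and the other genes 1 each. Of the 13, 12 passed the filter on low signal and were tested, so that each of the 10 genes was tested through at least 1 probe set. The exception was the second Lgmn probe set (1380609_at), whose mean signal over the 6 arrays was 33.6 against a filter of 61.6. The tested probe set nearest to the filter was that of Ctsz, at 64.4.

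Cathepsins are proteases made as inactive precursors, sorted to endosomes and lysosomes through mannose 6-phosphate receptors, and activated there by acid pH and by other proteases. Most members here are cysteine proteases of the papain family, Ctsd is an aspartic protease, and Lgmn is an asparaginyl endopeptidase that also trims cathepsin precursors. Part of the enzyme can be secreted, where it cleaves matrix proteins, and Cst3 is the widespread secreted inhibitor of the papain-family members. Fibroblasts are known for Ctsb and Ctsl, osteoclasts for Ctsk, and antigen-presenting cells for Ctss.

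Expression was measured on 6 Affymetrix rat genome arrays, as the MAS5 signal of each probe set, in 3Y1 cells, a rat embryonic fibroblast line, in 3 groups of 2 biological replicates. The Vector group was 3Y1 with an empty vector, stably transfected and grown in culture. The MUC1-CD culture group was 3Y1 stably transfected for expression of the cytoplasmic domain of the mucin MUC1 and grown in the same serum-containing medium (in vitro in the plots). The MUC1-CD tumor group was the same MUC1-CD cells grown under the skin of the hindlimbs of female athymic mice, which lack a thymus but keep macrophages, natural killer cells, vessels and stroma of their own (in vivo in the plots). The labels and design text used here name neither the promoter of the vector, nor the age of the mice, nor whether a line was a clone or a pool. The series set out to look for genes linked to the transforming and tumor-forming effect of the MUC1 domain. Nothing in the labels says that the culture replicates came from separate transfections, so p values measure the spread between these samples, which may be technical.

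The signal filter took the mean over all 6 arrays, tumors included, so passing it could not test the 3Y1 label of the cultured cells. All 10 fibroblast markers passed it, and 2 of 8 epithelial markers did. Those 2 were Krt8, which read 450 and 424 in Vector and 59.1 or less on the other arrays, and Cdh1, which read 537 and 425 in tumors and 13.3 or less on the other arrays. Each array had the same 2% trimmed mean signal, 500.2. The Vector arrays stood apart in the 3' to 5' signal ratio of the Gapdh control, 11.5 and 17.8 against 1.11 to 1.18 on the other arrays. The beta-actin control gave 41.7 on Vector replicate 2, 4.15 on Vector replicate 1 and 2.97 to 3.37 elsewhere. RNA quality and the Vector group therefore cannot be told apart, and this holds for every comparison with Vector below. Rat Muc1, whose probe set may not detect the transfected sequence, had signals of 92.6 and 83.2 in Vector, 43.5 and 26.7 in MUC1-CD culture and 61.3 and 51.7 in tumors, and was not tested because its mean over the 6 arrays was under the filter. Signals of different probe sets are on no common scale, so levels are compared between arrays and not between genes, and summed signals of a marker list below serve only to set arrays side by side.

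The proximal promoters of 6 members are given, picked for their changes or for a motif. Ctsc, Ctsh and Ctsk were called higher in both steps from Vector to tumor, and Ctss had the largest rise from culture to tumor. Cst3 moved the opposite way in the first step, and Ctsd held the only CACGTG matches. The window of Ctsz, which changed by -1.71 and 1.72 in the 2 steps, is not printed. The sequences run 5' to 3' from 250 bases before to 50 after the RefSeq start site in the GRCr8 assembly, and 9 of the 10 members matched an entry of that set. Capitals mark matches, on either strand, to CACGTG, the core of the element read by TFEB, TFE3 and MITF, and to GAGGAAG or its reverse complement CTTCCTC, a form of the purine-rich element read by PU.1 and other ETS factors.
Ctsc: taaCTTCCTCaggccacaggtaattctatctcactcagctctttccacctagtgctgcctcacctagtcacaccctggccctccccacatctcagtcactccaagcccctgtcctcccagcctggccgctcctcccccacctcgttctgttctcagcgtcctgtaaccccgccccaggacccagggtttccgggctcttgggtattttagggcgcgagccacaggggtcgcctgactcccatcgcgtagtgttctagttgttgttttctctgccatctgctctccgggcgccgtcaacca
Ctsh: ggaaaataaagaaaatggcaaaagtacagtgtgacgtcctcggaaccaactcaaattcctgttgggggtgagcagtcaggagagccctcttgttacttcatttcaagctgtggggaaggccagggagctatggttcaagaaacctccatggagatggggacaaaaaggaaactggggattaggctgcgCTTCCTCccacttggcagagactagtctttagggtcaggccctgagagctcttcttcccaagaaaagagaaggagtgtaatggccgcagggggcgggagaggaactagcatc
Ctsk: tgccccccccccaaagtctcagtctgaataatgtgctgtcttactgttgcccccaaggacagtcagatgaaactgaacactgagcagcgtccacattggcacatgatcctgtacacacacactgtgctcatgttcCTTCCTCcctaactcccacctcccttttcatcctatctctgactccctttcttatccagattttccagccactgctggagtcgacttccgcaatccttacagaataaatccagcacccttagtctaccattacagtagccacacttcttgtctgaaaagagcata
Ctss: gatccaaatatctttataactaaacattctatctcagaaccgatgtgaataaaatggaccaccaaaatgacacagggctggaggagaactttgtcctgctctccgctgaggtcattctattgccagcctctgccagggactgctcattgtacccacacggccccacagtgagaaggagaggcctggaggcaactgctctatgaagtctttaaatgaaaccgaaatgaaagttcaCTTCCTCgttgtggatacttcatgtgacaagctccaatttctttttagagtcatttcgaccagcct
Ctsd: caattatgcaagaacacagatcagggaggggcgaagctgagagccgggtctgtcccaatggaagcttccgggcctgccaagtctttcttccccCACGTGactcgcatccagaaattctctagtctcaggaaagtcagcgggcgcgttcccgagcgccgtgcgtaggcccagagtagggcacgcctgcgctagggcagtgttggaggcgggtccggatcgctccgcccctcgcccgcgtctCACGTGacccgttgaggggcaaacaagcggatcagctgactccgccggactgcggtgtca
Cst3: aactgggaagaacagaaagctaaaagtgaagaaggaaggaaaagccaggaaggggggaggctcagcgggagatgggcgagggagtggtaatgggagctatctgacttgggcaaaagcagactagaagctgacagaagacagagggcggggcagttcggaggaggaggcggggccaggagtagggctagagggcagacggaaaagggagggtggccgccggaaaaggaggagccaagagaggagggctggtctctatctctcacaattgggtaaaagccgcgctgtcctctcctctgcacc
These windows lie at chr1:151440799-151441098 (plus strand) for Ctsc, chr8:99488506-99488805 (plus) for Ctsh, chr2:185747298-185747597 (plus) for Ctsk, chr2:185775146-185775445 (plus) for Ctss, chr1:206968772-206969071 (minus) for Ctsd and chr3:156793888-156794187 (minus) for Cst3. GAGGAAG was found in 5 of 9 member windows (Ctsc, Ctsh, Ctsk, Ctss and Ctsz), and in 12.4% of all 33469 windows of this length. It began at position -247 relative to the start site in Ctsc, -62 in Ctsh, -115 in Ctsk, -16 in Ctss and -73 in Ctsz. CACGTG was found in 1 of 9, Ctsd, which held it at -157 and -10, against 6.42% of all windows. The matches do not overlap, and they describe letters in the window and not binding. Ctsk and Ctss lie close together on chromosome 2, with 1 annotated protein-coding gene between them.

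Ctsc and Ctsh, both exopeptidases, had signals of 25.6 or less in Vector cells, rose in MUC1-CD culture and rose again in tumors. Ctsc encodes dipeptidyl peptidase I, which activates the granule serine proteases of leukocytes and mast cells. Its first probe set (1374778_at) read 7.30 and 14.1 in the Vector arrays, 1623 and 1663 in MUC1-CD culture, and 4854 and 4570 in tumors. Its second (1368280_at) read 2.5 and 1.9, then 371 and 405, then 2071 and 1930. All 3 groups were apart from each other on both probe sets, with replicates within each MUC1-CD group close together. On the scale of log2(signal + 16), Ctsc rose by 5.97 ± 0.17 (SE) in MUC1-CD culture against Vector on the first probe set and by 4.47 ± 0.17 on the second (limma adjusted p = 7.07e-06 and 1.92e-05). Against MUC1-CD culture, tumors were higher by a further 1.51 ± 0.17 and 2.32 ± 0.17 (limma adjusted p = 0.00227 and 0.000414). The added pseudocount holds down changes from such low signals, so these sizes understate the ratio of signals, and the second probe set had 6.93 with a pseudocount of 1 and 2.77 with 64 in the first step. Without tumor replicate 1 the first probe set had 1.47 in that step at a limma adjusted p of 0.0502.

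Ctsh, an aminopeptidase of the papain family, followed the same order. It read 3.20 and 25.6 in Vector, 653 and 655 in MUC1-CD culture, and 2107 and 2065 in tumors. The 2 Vector arrays differed by 1.12 on the log2 scale while the other pairs differed by 0.03 or less, and no group overlapped another. Ctsh rose by 4.57 ± 0.34 in MUC1-CD culture against Vector (limma adjusted p = 0.000158), and by 1.65 ± 0.34 in tumors against MUC1-CD culture (limma adjusted p = 0.0214). The SE of the second value is drawn from a spread that the Vector arrays share in: with only the MUC1-CD arrays in the fit the change was also 1.65 (limma adjusted p = 1.32e-07). It missed the threshold when any 1 of the 4 MUC1-CD arrays was left out (adjusted p = 0.149 and 0.144 without culture replicates 1 and 2, 0.155 and 0.145 without tumor replicates 1 and 2) and with a pseudocount of 1 (0.199).

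**Figure D1:**
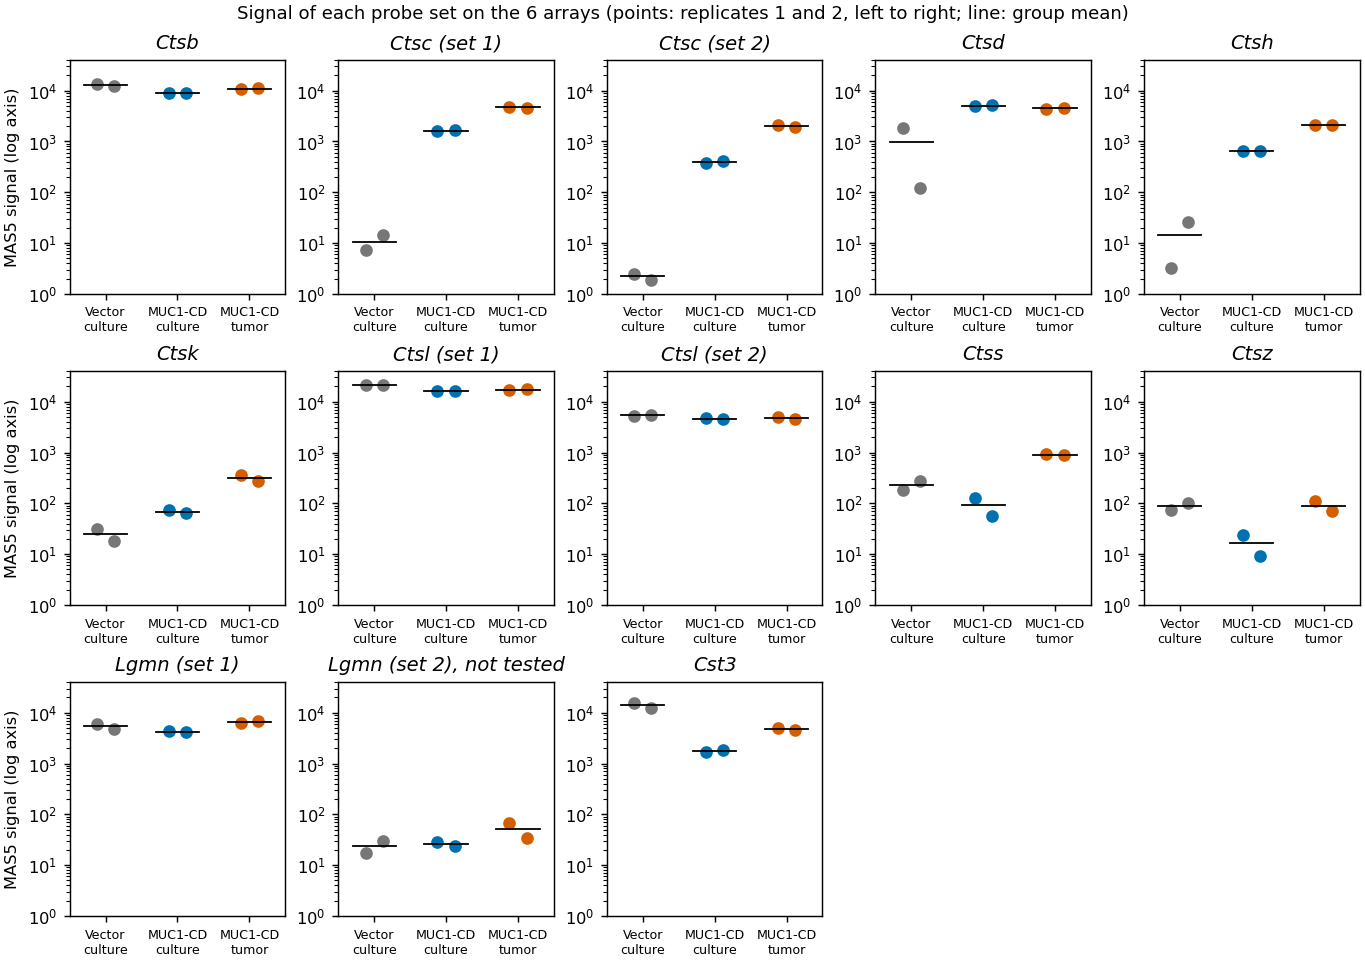
MAS5 signal (log axis) of the 13 probe sets on the 6 arrays, with points for replicates 1 and 2 of each group and a line at the group mean; set 1 and set 2 are the brighter and dimmer probe set of a gene. Ctsc and Ctsh step up from Vector to MUC1-CD culture to tumor, Cst3 drops from 14068 to 1779 and returns to 4789, and the 2 Vector points of Ctsd lie far apart at 1827 and 120.

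Ctsk, the collagen-degrading cathepsin of osteoclasts, also stepped up in both comparisons, from a low level. Its signals were 31.5 and 18.2 in Vector, 72.4 and 65.4 in MUC1-CD culture and 357 and 275 in tumors. The 3 groups did not overlap. The rise was 1.07 ± 0.27 in MUC1-CD culture against Vector (limma adjusted p = 0.0175) and 1.96 ± 0.27 in tumors against MUC1-CD culture (limma adjusted p = 0.00534). The first of these was 0.58 with a pseudocount of 64, 0.45 with quantile normalization (adjusted p = 0.181), 1.07 with array weights (0.0573), and lost its call without MUC1-CD culture replicate 1 or 2 (0.104 and 0.0829). The second lost its call without MUC1-CD culture replicate 1 or 2 (adjusted p = 0.055 and 0.0633) or tumor replicate 1 (0.0781), at values of 1.78 to 2.14 over the arrays left out.

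Ctss and Ctsz had another shape: lower in MUC1-CD culture than in Vector, and higher again in tumors. Ctss, which cleaves the invariant chain off MHC class II molecules and stays active at neutral pH, read 179 and 273 in Vector, 126 and 56.8 in MUC1-CD culture, and 916 and 909 in tumors. The lowest Vector array was above the highest MUC1-CD culture array, and both tumor arrays were above all others. Ctss fell by 1.23 (SE 0.34) in MUC1-CD culture (limma adjusted p = 0.0253) and rose by 3.19 ± 0.34 in tumors against MUC1-CD culture (limma adjusted p = 0.00195), the largest change of any member in that step. The fall was -0.75 without MUC1-CD culture replicate 2 (adjusted p = 0.133), and missed the threshold without tumor replicate 1 or 2 (0.0581 and 0.0583), with array weights (0.0818) or with only the 2 groups in the fit (0.0605). The rise was called with each array left out, at 2.71 to 3.67, and tumors exceeded Vector by 1.97 ± 0.34 (limma adjusted p = 0.00343).

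Ctsz, a carboxypeptidase also called cathepsin X, read 74.1 and 100 in Vector, 23.3 and 9.10 in MUC1-CD culture, and 111 and 69.0 in tumors. It fell by 1.71 (SE 0.36) in MUC1-CD culture (limma adjusted p = 0.00918) and rose by 1.72 ± 0.36 in tumors against MUC1-CD culture (limma adjusted p = 0.0232). Tumor and Vector arrays overlapped, and their difference was 0.02 ± 0.36 (limma adjusted p = 0.97), so that a difference between them was not shown. With a pseudocount of 64 the values were -0.92 and 0.93. The fall lost its call without MUC1-CD culture replicate 2 (adjusted p = 0.0665). The rise lost its call without MUC1-CD culture replicate 1 or 2 (adjusted p = 0.0729 and 0.158) or tumor replicate 2 (0.0844). With either Vector replicate or tumor replicate 1 left out, the mean signal of Ctsz dropped under the filter and it was not tested.

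Cst3 went down where Ctsc and Ctsh went up. Cystatin C read 15629 and 12507 in Vector, 1724 and 1833 in MUC1-CD culture, and 4990 and 4588 in tumors. Both MUC1-CD groups lay below both Vector arrays, and tumors lay between the culture groups. The fall in MUC1-CD culture was the largest of any member: Cst3 fell by 2.96 (SE 0.13; limma adjusted p = 2.94e-05), a ratio of mean signals of 7.91. In tumors it rose by 1.42 ± 0.13 against MUC1-CD culture (limma adjusted p = 0.000945) and differed from Vector by -1.54 (SE 0.13, limma adjusted p = 0.000168). These calls held under each of the 16 alternatives run, with ranges of -3.29 to -2.80, 1.15 to 1.48 and -2.14 to -1.36.

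Ctsd, the main aspartic protease of lysosomes, had the least certain Vector level. Its signals were 1827 and 120 on Vector replicates 1 and 2, 4886 and 5318 in MUC1-CD culture and 4379 and 4634 in tumors. The MUC1-CD arrays lay above both Vector arrays, but the Vector pair was 3.76 apart on the log2 scale. Only 7 of the 18625 tested probe sets (0.0376%) had a gap that large between the Vector arrays, Ctsd among them, and all 7 were higher on replicate 1. The change in MUC1-CD culture against Vector was 3.35 ± 1.03 (limma adjusted p = 0.0359), but 1.47 without Vector replicate 2 (adjusted p = 2.26e-07) and 5.24 without Vector replicate 1 (4.55e-11). It missed the threshold without MUC1-CD culture replicate 1 or 2 (adjusted p = 0.129 and 0.145) and without tumor replicate 1 or 2 (0.0723 each). It also missed it with no filter (adjusted p = 0.057), without the mean-variance trend (0.0586) and with only the 2 groups in the fit (0.0708). Tumors differed from MUC1-CD culture by -0.18 ± 1.03 (limma adjusted p = 0.931). With only the MUC1-CD arrays fitted, the adjusted p of that value was 0.0544, so that a difference between tumor and culture was not shown in either fit.

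Ctsb, Ctsl and Lgmn (first probe set) changed by less than 1 on the log2 scale in every comparison. Ctsb, an endopeptidase and dipeptidyl carboxypeptidase, read 13298 and 12398 in Vector, 9038 and 9000 in MUC1-CD culture, and 10642 and 11348 in tumors. It fell by 0.51 (SE 0.08) in MUC1-CD culture against Vector (limma adjusted p = 0.00242), and no array of 1 group reached the other. The fall was -0.83 after division by array medians and -0.31 with quantile normalization. Tumors differed from MUC1-CD culture by 0.28 ± 0.08 (limma adjusted p = 0.0533). In the main fit that difference was not called. It did pass with a pseudocount of 64, a 60th percentile filter, quantile normalization and array weights (limma adjusted p = 0.00263 to 0.0497). It passed with only the MUC1-CD arrays fitted (0.28, adjusted p = 0.00225) and without Vector replicate 1 or 2 (adjusted p = 0.0022 and 0.00223), and was 0.01 after division by array medians (adjusted p = 0.937).

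Ctsl, the endopeptidase cathepsin L, read 21541 and 21226 in Vector, 16124 and 16615 in MUC1-CD culture and 16745 and 17701 in tumors on its first probe set (1370244_at). On its second (1370245_at) the group means were 5407 ± 235, 4604 ± 157 and 4728 ± 253 (SD, n = 2). The first fell by 0.39 (SE 0.07) in MUC1-CD culture (limma adjusted p = 0.00363), while the second, at -0.23 ± 0.09, was not called (limma adjusted p = 0.0845), but passed without Vector replicate 1 (0.0119) and after division by array medians (-0.56, adjusted p = 0.00405). The first was -0.04 with quantile normalization (adjusted p = 0.55), -0.71 after division by array medians, and not called without the mean-variance trend (0.0562). Neither was called between tumors and MUC1-CD culture (0.07 ± 0.07 and 0.04 ± 0.09; limma adjusted p = 0.494 and 0.827).

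Lgmn, legumain, read 5998 and 4828 in Vector, 4287 and 4246 in MUC1-CD culture and 6181 and 6761 in tumors on its first probe set (1368430_at). It rose by 0.60 ± 0.12 in tumors against MUC1-CD culture (limma adjusted p = 0.0217), and the culture arrays lay below both tumor arrays. That call was lost without any 1 of the 4 MUC1-CD arrays (adjusted p = 0.154 and 0.158 without culture replicates 1 and 2, 0.125 and 0.174 without tumor replicates 1 and 2), after division by array medians (0.33, adjusted p = 0.129) and without the mean-variance trend (0.0664). MUC1-CD culture against Vector gave -0.33 ± 0.12 (limma adjusted p = 0.0646), which passed without Vector replicate 2 at -0.49 (0.000354) and after division by array medians at -0.66 (0.00622). The second probe set read 17.6 and 29.6 in Vector, 29.2 and 23.9 in MUC1-CD culture and 66.6 and 34.5 in tumors.

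**Figure D2:**
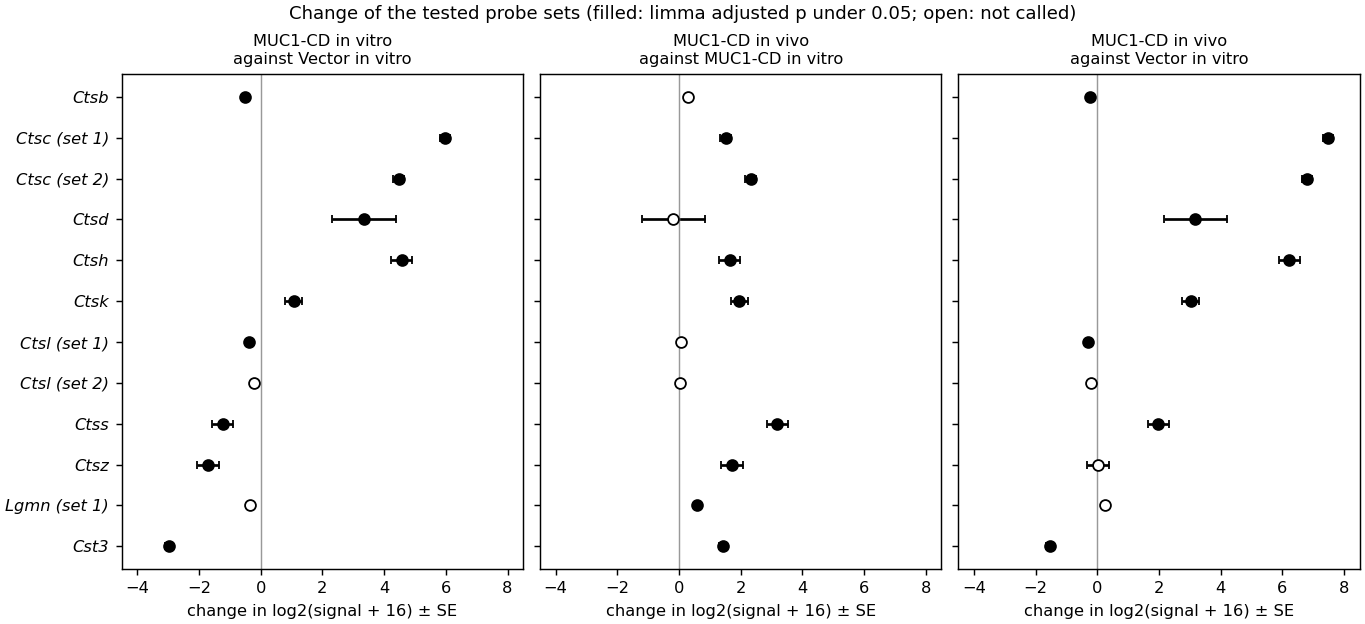
Change in log2(signal + 16) with its SE for the 12 tested probe sets in the 3 comparisons, filled where the limma adjusted p was under 0.05. In the first panel 5 points lie above 0 and 5 below among the filled ones, while in the second all 8 filled points lie above 0.

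The first comparison asked what goes with the MUC1 domain in culture. Ctsc, Ctsh, Ctsd and Ctsk were higher, and Cst3, Ctsz, Ctss, Ctsb and Ctsl were lower. Of the 13 probe sets, 12 were tested, 5 rose (2 of them Ctsc), 5 fell and 2 were not called. Over all tested probe sets limma called 45.8% at adjusted p under 0.05 in this comparison, 25% higher and 20.7% lower, so a call alone is common here. The median over all 13 was -0.23, beside 0.01 over all probe sets without the filter. With only the 2 groups in the fit 6 were called, since Ctsd and Ctss missed the threshold and Ctsk and Ctsz were under the filter and not tested. Without MUC1-CD culture replicate 2, 6 of 12 were called.

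The second comparison asked what goes with growth in the animal. Ctss, Ctsc, Ctsk, Ctsz, Ctsh, Cst3 and Lgmn were higher in tumors and no member was lower. Of 12 tested probe sets, 8 rose, 0 fell and 4 (Ctsb, Ctsd and both of Ctsl) were not called. The share called over all tested probe sets was 15.8%, with 8.54% higher and 7.31% lower. The median over the 13 probe sets was 1.42, beside 0.13 over all probe sets without the filter. Fewer calls were left when an array was left out: 4 without MUC1-CD culture replicate 1, 4 without replicate 2, 3 without tumor replicate 1 (Ctsz not tested) and 5 without tumor replicate 2, with all of them higher. Tumors were frozen, cut and homogenized before RNA was purified, unlike cultured cells, and an effect of that handling cannot be told apart from one of growth in the animal.

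The comparison of tumors with Vector shares its arrays with both of those above. Ctsc, Ctsh, Ctsk, Ctss and Ctsd were higher, by 7.48 ± 0.17 and 6.79 ± 0.17 for Ctsc, 6.22 ± 0.34 for Ctsh and 3.03 ± 0.27 for Ctsk (limma adjusted p = 2.58e-06 to 0.000226). Cst3, Ctsb and the first Ctsl probe set were lower, Ctsb at -0.22 ± 0.08 (limma adjusted p = 0.0486) and Ctsl at -0.31 ± 0.07 (0.00732). In all, 6 probe sets were called higher and 3 lower of 12 tested, against 51.5% of all tested probe sets called, 29.1% higher and 22.4% lower. The split was 5 higher and 4 lower after division by array medians, and 7 and 2 with quantile normalization. Ctsd, at 3.18 ± 1.03 (adjusted p = 0.0391), was 1.29 without Vector replicate 2 and 5.06 without Vector replicate 1, and lost its call without any 1 of the 4 MUC1-CD arrays (0.0716 to 0.145). It was also not called with no filter, after division by array medians (2.60), without the mean-variance trend or with only the 2 groups (adjusted p = 0.0581 to 0.07). The call of Ctsb was lost without any 1 of those 4 arrays (adjusted p = 0.108 to 0.25) with the replicate number as a block (0.0744), and with no filter, array weights, no mean-variance trend or only the 2 groups (0.104 to 0.204). That of Ctsl was lost without tumor replicate 1 (0.0653) and without the trend (0.0916). After division by array medians Ctsb was -0.82 and Ctsl -0.91, and with quantile normalization they were -0.06 (adjusted p = 0.485) and -0.17 (0.041). The second Ctsl probe set, not called at -0.19 ± 0.09 (adjusted p = 0.126), passed after division by array medians (-0.79, 0.0006) and without Vector replicate 1 (0.0224). Lgmn, not called at 0.26 ± 0.12 (adjusted p = 0.115), passed with quantile normalization (0.41, 0.0282) and without Vector replicate 1 (0.000801).

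**Figure D3:**
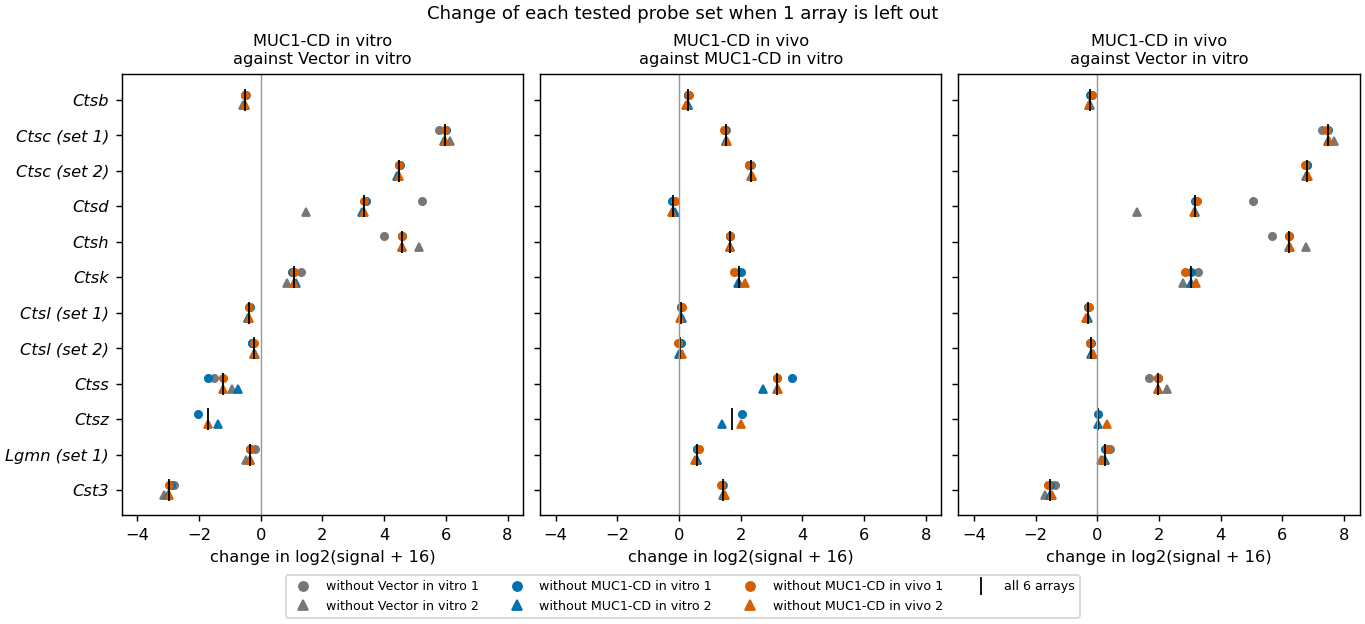
Change in log2(signal + 16) of each tested probe set with all 6 arrays (bar) and with each array left out (circles for replicate 1, triangles for replicate 2, coloured by group). The grey Vector points of Ctsd spread from 1.47 to 5.24 in the first panel, whereas those of Cst3 and Ctsc stay close to the bar.

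The other genes of the pathway, each taken through its brightest tested probe set, were called in both directions. Lysosomal hydrolases had 2 genes higher (Lipa and Pla2g15) and 6 lower of 23 tested in MUC1-CD culture against Vector, with a median of -0.15 beside -0.04 over all genes, of which 46.1% were called (21.2% higher and 24.9% lower). Man2b1, a mannosidase, fell by 1.87 (SE 0.15), and Fuca1, a fucosidase, fell by 1.15 (SE 0.10; limma adjusted p = 0.000201 and 0.000288). In tumors against MUC1-CD culture 5 of 23 rose and 0 fell, with a median of 0.08 beside 0.03 over all genes and 18.8% of genes called (9.82% higher and 8.97% lower). Man2b1 rose there by 0.94 ± 0.15 and Fuca1 by 0.57 ± 0.10 (limma adjusted p = 0.00892 and 0.0133). In tumors against Vector 5 rose and 6 fell, with 51.4% of all genes called (24.8% higher and 26.6% lower).

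Of 15 subunits of the vacuolar proton pump, which acidifies lysosomes, 1 was higher (Atp6v1f) and 7 were lower in MUC1-CD culture against Vector, with a median of -0.25. Atp6v1c1 fell by 0.97 (SE 0.12) and Atp6v0d1 fell by 0.74 (SE 0.11; limma adjusted p = 0.000925 and 0.00217). In tumors 1 of 15, Atp6v1c1, was higher than in MUC1-CD culture and 0 lower, and 2 were higher and 8 lower than in Vector. Among 11 membrane and activator proteins of the lysosome, 1 rose and 3 fell in MUC1-CD culture, 2 rose and 1 fell in tumors against it, and 1 rose and 1 fell in tumors against Vector. The tetraspanin Cd63 fell by 0.43 (SE 0.07) and then rose by 0.30 ± 0.07 (limma adjusted p = 0.00269 and 0.0308).

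Among 11 genes of lysosomal sorting and transcriptional control, 3 rose (Igf2r, Sort1 and Tfe3) and 2 fell in MUC1-CD culture, and 1 rose, Mitf, and 0 fell in tumors against it. Mitf, a transcription factor of the TFEB family, rose by 1.11 ± 0.19 in that step (limma adjusted p = 0.0108), and Tfeb had 0.43 ± 0.17 (adjusted p = 0.146). Against Vector, tumors had 5 higher and 2 lower. Of 10 other cathepsins with a probe set, 3 passed the filter (Ctsa, Ctsf and Ctso). Ctso fell by 1.66 (SE 0.18) in MUC1-CD culture (limma adjusted p = 0.000683) and was -1.86 ± 0.18 in tumors against Vector (0.000339). Ctsf was also lower in tumors than in Vector, and none of the 3 was called between tumors and MUC1-CD culture.

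Of 7 other cystatin-type inhibitors with a probe set only Cstb, an inhibitor inside cells, passed the filter. It fell by 0.34 (SE 0.10) in MUC1-CD culture and rose by 0.57 ± 0.10 in tumors against it (limma adjusted p = 0.0253 and 0.0104), and at 0.23 ± 0.10 it was not called between tumors and Vector (adjusted p = 0.0803).

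The genes that work beside Ctss and Lgmn in endosomal antigen processing were mostly lower in MUC1-CD culture and higher in tumors. Of 8 tested, 0 rose and 6 fell in MUC1-CD culture against Vector, and 7 rose and 0 fell in tumors against MUC1-CD culture, with medians of -1.23 and 1.99. Over all genes, 24.9% were lower in the first of these comparisons and 9.82% higher in the second. Cd74, the invariant chain that Ctss cleaves, read 170 and 103 in Vector, 58.4 and 41.7 in MUC1-CD culture and 4211 and 4201 in tumors, and rose by 6.01 ± 0.25 in the second step (limma adjusted p = 9.55e-05). Ifi30, the thiol reductase of the same compartment, fell by 3.79 (SE 0.18; limma adjusted p = 3.79e-05) in the first step and was still -2.87 ± 0.18 in tumors against Vector (6.88e-05). In tumors against Vector 5 of the 8 were higher and 1, Ifi30, lower.

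**Figure D4:**
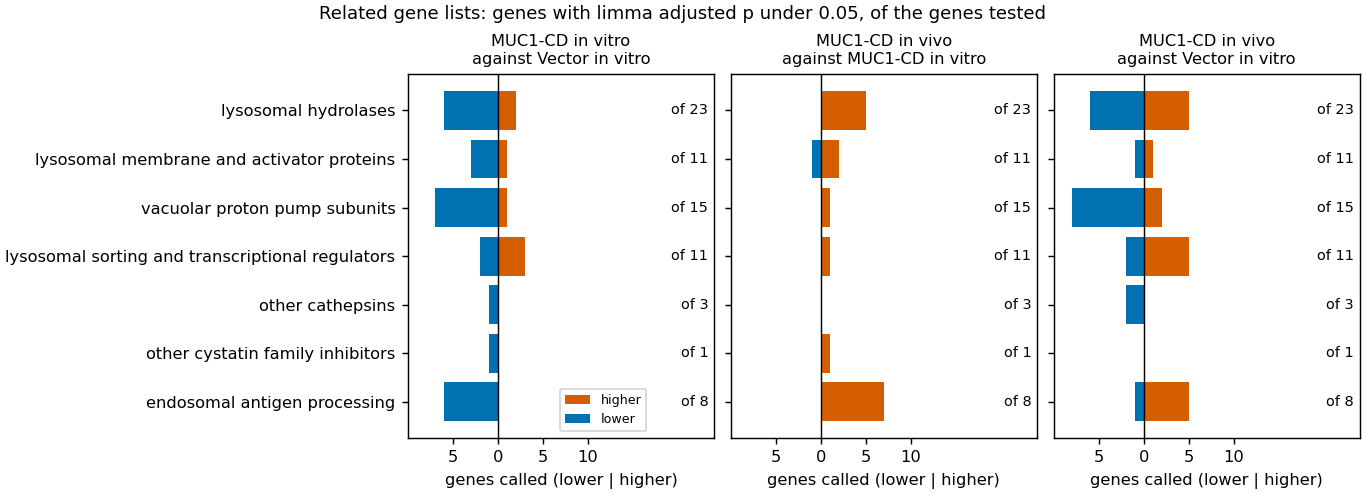
Number of genes called higher (right) and lower (left) by limma in 7 lists of genes related to the cathepsins, with the number tested at the edge of each panel. Endosomal antigen processing has 6 of 8 lower in MUC1-CD culture and 7 of 8 higher in tumors, whereas 14 of 15 proton pump subunits were not called between tumors and MUC1-CD culture.

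Many markers of cell types that the host could supply rose on the same tumor arrays as Ctss, Ctsc, Ctsk, Ctsh and Ctsz. Of 12 tested macrophage markers, 8 rose and 1 fell in tumors against MUC1-CD culture, with a median of 2.78. Over all genes 9.82% were higher and 8.97% lower. The filter took the mean over all 6 arrays, so a marker high in tumors alone could pass, as Aif1 and Coro1a did. Markers with a mean under it, such as Itgam and Adgre1, were not tested. The counts and the median are therefore partly set by the filter. The summed signal of the list over 18 genes was 8058 and 8019 in tumors against 3505 and 3749 in MUC1-CD culture and 1266 and 1386 in Vector. Cd14 read 594 and 464 in Vector, 2828 and 3052 in MUC1-CD culture and 3248 and 3289 in tumors. Aif1 read 13.5 and 2.4 in Vector, 0.8 and 0.4 in MUC1-CD culture and 639 and 604 in tumors. Coro1a read 2.9 and 5.3, then 15 and 1.6, then 912 and 1105. Adgre1 read 16 or less on every array. The part of host cells in the tumor signals was not tested. In these bulk samples, fewer cells of a type and less RNA per cell cannot be told apart, nor can rat and mouse transcripts.

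The macrophage list was mixed in MUC1-CD culture: Cd163 read 115 and 145 there against 1.7 and 9.3 in Vector, and Csf1r 66.5 and 46.2 against 21.5 and 26.9, whereas Itgam read 2.3 and 2.2 against 2.2 and 4.8. In that comparison, 2 of 12 tested macrophage markers rose, Cd14 by 2.45 ± 0.14 and Cd163 by 2.78 ± 0.30, and 1 fell, Lyz2, by 2.16 (SE 0.24; limma adjusted p = 7.29e-05 to 0.000647). Osteoclast markers, relevant to Ctsk, had summed signals over 5 genes of 65 and 71 in Vector, 82 and 71 in MUC1-CD culture and 226 and 256 in tumors. Of these genes only Mmp9 passed the filter, and it was called in tumors against Vector alone (1.82 ± 0.55, limma adjusted p = 0.0301). The untested genes were mixed. Acp5 read 75.8 and 93.9 in tumors and 11.9 or less elsewhere. Itgb3 had means of 4.05 in Vector, 5.55 in MUC1-CD culture and 17.6 in tumors. Calcr had 29.3, 2.4 and 27.8 in the same order, and Tnfrsf11a 7.75, 3.8 and 5.0, so neither was higher in tumors than in Vector.

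Lists for other cell types moved in tumors against MUC1-CD culture as well, though some of their genes read high in cultured cells. Myh1 had means of 10038 in Vector, 2716 in MUC1-CD culture and 4026 in tumors, and Pdgfra 10101, 6953 and 4600. Against Vector, tumors had 7 of 9 tested skeletal muscle markers higher and 1, Myh1, lower. Of 12 pericyte and stromal markers 11 were higher there and 1, Pdgfra, lower. A gene high in tumors alone could pass the filter here too. Of 11 endothelial markers with a probe set, 4 were tested, and all 4 rose in tumors against MUC1-CD culture. Aqp1, Flt1 and Tek read above the filter value in tumors alone, and Esam did so in MUC1-CD culture as well. The count of endothelial markers that rose is therefore partly set by the filter. Of the untested, Emcn, Tie1, Cldn5 and Eng had higher means in tumors than in MUC1-CD culture. Pecam1 had means of 23.6 in MUC1-CD culture and 22.6 in tumors, Kdr 6.8 and 9.1, and Vwf 22.7 and 9.95. Of 9 tested skeletal muscle markers 8 rose and 0 fell, and of 12 pericyte and stromal markers 7 rose and 1 fell. Of 12 lymphoid and granulocyte markers only S100a9 passed the filter, with means of 27.3 in Vector, 3.05 in MUC1-CD culture and 211 in tumors. It read above the filter value in tumors alone, so its being tested, and its rise there, are partly set by the filter. The untested S100a8 read 87.0 and 117 in Vector, lower in tumors at 51.0 and 68.9, and lowest in MUC1-CD culture. S100a9 rose by 3.58 ± 0.36 in tumors against MUC1-CD culture (limma adjusted p = 0.00147). Of the fibroblast markers 4 of 10 rose and 0 fell in that step, and 1 rose and 7 fell in MUC1-CD culture against Vector. Of 2 tested epithelial markers, Krt8 fell by 3.02 (SE 0.23; limma adjusted p = 0.000178) in MUC1-CD culture against Vector, and Cdh1 rose in tumors against MUC1-CD culture by 4.70 ± 0.29 (limma adjusted p = 0.000281). In MUC1-CD culture against Vector, 1 of 4 endothelial markers rose, 1 skeletal muscle marker rose and 3 fell of 9, 4 of 12 pericyte and stromal markers rose and 2 fell, and S100a9 fell.

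The genes whose profile over the 6 arrays lay closest to each member were found by Euclidean distance between centred log2 values. For Ctss these were Cybb, a subunit of the phagocyte oxidase (distance 0.51), and Nckap1l (0.71), and for Ctsz they were Tmem176a (0.54) and Lcp1 (0.61). Cybb had changes of -0.93 and 3.13 in the 2 steps, beside -1.23 and 3.19 for Ctss. Ctsc was nearest to Cbln2 (0.39) and Pcdh9 (0.47), Ctsh to Enpp3 (0.63) and Col15a1 (1.02), Ctsk to Ago1 (0.30) and Pdyn (0.36), and Cst3 to Cfd (0.27) and Fam151b (0.28). Ctsd was nearest to Glg1 (0.34), which had 3.46 in MUC1-CD culture against Vector, and then to Ap2s1 (1.08). The Ctsd profile holds the gap of 3.76 between the Vector arrays, and a profile as near as that of Glg1 must share that gap. The Vector level behind the 3.46 of Glg1 is therefore as uncertain as that of Ctsd. Lgmn was nearest to Tceal8 (0.13) and Lamp1 (0.15), a lysosomal membrane protein that had -0.34 and 0.49 in the 2 steps, and the small profiles of Ctsb and Ctsl lay within 0.05 to 0.09 of Cstpp1, Rpl5, Rad17 and Rpl23a.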

How the data were processed

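The authors deposited 1 MAS5 signal per probe set and array (MAS5 is named in the submitters' processing notes), which is a linear intensity. No source used here states the version, the detection calls or the scan dates, so no probe set could be called undetected and no batch was examined. The authors' scaling was kept. Of 31042 probe sets other than controls, 20826 named 1 gene, and 20758 of these matched GRCr8 by Entrez identifier, which gave current symbols.

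Signals were taken as log2(signal + 16), and the 18625 probe sets at or above the 40th percentile of mean signal (61.6) were fitted in limma 3.58.1 (R 4.3.3) with group as the only term and a mean-variance trend (residual degrees of freedom 3, median prior 3.70). P values were 2-sided, adjusted by Benjamini-Hochberg over all 18625, and called under 0.05. The spread is 1 estimate for all groups. Replicates differed more in Vector (SD of the difference 0.616) than in MUC1-CD culture (0.257) or tumors (0.284), so p values against Vector can be too small and those within MUC1-CD too large. Genes of lists were represented by their brightest tested probe set.

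Members, 15 gene lists and motifs were chosen with earlier results of these data known. Named genes were all members, up to 3 genes of each list with the smallest p in a comparison, and the 2 nearest profiles of each member. Some genes beside these (Cd74 levels, Ifi30, Cd14, Csf1r, Itgam, Adgre1, genome neighbours, Acp5, Tfeb, Ctsf and those named as called in a count) were named after their values were seen. The same holds for Emcn, Tie1, Cldn5, Eng, Pecam1, Kdr, Vwf, Tek, Calcr, Itgb3, Tnfrsf11a and S100a8. The code was tested on simulated data.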

Additional observations from a re-analysis of the deposited data

How the results depend on the processing

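Each of 36 changes (12 probe sets, 3 comparisons) was refitted under up to 16 alternatives: pseudocounts of 1 and 64, no filter or a 60th percentile filter, division by array medians, quantile normalization, array weights, no mean-variance trend, only the 2 groups compared, the replicate number as a block, and each of the 6 arrays left out. Of the 36, 15 kept their direction and side of the threshold wherever they were tested. The count of member probe sets called was 6 to 10 with 1 array left out for MUC1-CD culture against Vector (10 with all arrays), 3 to 8 for tumors against MUC1-CD culture (8) and 6 to 11 for tumors against Vector (9). With only the 2 groups compared, it was 6 in the first comparison, where Ctsk and Ctsz were not tested because their means over those 4 arrays were under the filter. Replicate numbers did not pair the samples (correlations of deviations -0.02, -0.03 and -0.04), and with the replicate block the counts were 10, 8 and 8. Direction reversed only for uncalled values. In tumors against MUC1-CD culture, Ctsl was -0.20 and -0.23 on its 2 probe sets after division by array medians, -0.12 on the first with quantile normalization, and from -0.02 to 0.09 on the second with 1 array left out. In tumors against Vector, Ctsz was -0.49 and Lgmn -0.33 after division by array medians, and Ctsz -0.66 with quantile normalization. Division by medians shifted the middle of all changes by -0.32, -0.26 and -0.58 in the 3 comparisons, and quantile normalization by -0.11, -0.08 and -0.19. Over all probe sets, calls between tumors and MUC1-CD culture rose from 2952 to 8144 with only those arrays fitted, to 7798 with array weights, and to 8097 and 8059 without Vector replicate 1 or 2. They dropped to 679 and 683 without culture replicate 1 or 2 and to 572 and 646 without tumor replicate 1 or 2. Calls against Vector went from 8522 to 4760 and 4391 for MUC1-CD culture without its replicate 1 or 2, and from 9589 to 5884 and 6031 for tumors without theirs. Detection calls were not at hand, so low signals such as those of Ctsc and Ctsh in Vector have no stated floor, and 2 arrays a group limit precision.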

Other observations

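The tested genes nearest to the members in GRCr8 were set beside them. Beside Ctsh, Rasgrf1 and Morf4l1 had -1.14 and -0.40 in MUC1-CD culture against Vector (limma adjusted p = 0.00596 and 0.00471), where Ctsh rose by 4.57. Beside Ctsc, Tmem135 had -0.37 (adjusted p = 0.361) and Zfand6 0.06 (0.687), with 1 and 29 protein-coding genes between. Ctsk and Ctss, close together on chromosome 2, had 1.07 and -1.23 in that comparison and 1.96 and 3.19 in tumors against MUC1-CD culture. On the outer side of Ctsk, Arnt had 0.01 and -0.05 (limma adjusted p = 0.979 and 0.942). On the outer side of Ctss, Golph3l had -0.86 and -0.07 (limma adjusted p = 0.00239 and 0.751). Beside Ctsd, Lsp1 had 0.04 in MUC1-CD culture against Vector and 1.18 in tumors against Vector (limma adjusted p = 0.858 and 0.00116). Cyssl2, with 10 protein-coding genes between it and Cst3, had 0.45 in MUC1-CD culture against Vector and 2.41 in tumors against MUC1-CD culture (limma adjusted p = 0.181 and 0.00174).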
